A study of Mus musculus with 14 samples.

Results

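Cytochrome P450 genes encode heme-containing monooxygenases, and 90 of the 36401 genes in the deposited files carried such a symbol: Cyp, a family number, a subfamily letter and a gene number, with no suffix. They fell into 38 subfamilies of 16 families. In 28 subfamilies there was 1 gene, and the largest were Cyp2c with 15 genes, Cyp2d and Cyp4f with 8 each, and Cyp2j and Cyp3a with 7 each. A further 12 Cyp symbols were left out by this rule: 6 pseudogenes, and Cyp51, Cyp2ab1, Cyp3a41a, Cyp3a41b, Cyp4a12a and Cyp4a12b.

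The libraries came from the small intestine of C57Bl6 mice labelled male and 6 to 12 weeks old, with no transgene, deletion or treatment named in the labels. Ileum was taken 5 to 8 cm from the cecum and jejunum 5 to 8 cm from the pylorus. In each region 3 populations were collected after tissue digestion: CD166 cells, selected as positive for CD44 and CD166 with low CD24 (2 libraries a region), LGR5 cells (2 libraries a region) and crypt cells (3 libraries a region). The labels call all of them stem cells. The series text has sorted cells taken directly into lysis buffer, although the labels also describe a Matrigel culture of sorted cells. How LGR5 was detected, and whether the libraries of a group came from separate mice, is not given in the sources used here, so p-values measure only the spread between these libraries, which may be technical.

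P450 enzymes sit mainly in the endoplasmic reticulum and take electrons from P450 oxidoreductase (Por). The Cyp1, Cyp2 and Cyp3 families oxidise drugs, dietary compounds and other foreign molecules, whereas Cyp4 and Cyp2j enzymes act mostly on fatty acids and eicosanoids. In the intestine they are known chiefly from absorptive enterocytes of the villus, and several are induced through the receptors encoded by Nr1i2 (PXR), Nr1i3 (CAR) and Ahr.

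Library totals ran from 6295828 to 20380369 expected counts. Summed CPM (TMM-scaled counts relative to library size) of 20 enterocyte markers were 2775 to 5651 in CD166 libraries, 2813 to 4391 in LGR5 libraries and 10590 to 65370 in crypt libraries. Summed CPM of 10 crypt base columnar stem cell markers were 14520 to 17300 in CD166 libraries, 12310 to 25060 in LGR5 libraries and 1590 to 7094 in crypt libraries, while Paneth cell markers summed to 32940 to 53450 CPM in CD166 libraries, 5134 to 8807 CPM in LGR5 libraries and 5917 to 39350 CPM in crypt libraries. The libraries labelled ileum crypt 3 and jejunum crypt 1 stood apart as a pair: 15.1% of tested genes differed between them beyond counting noise, against 31.9% for the next most alike pair, and 8 of 42 tested P450 genes did. Which of the 2 libraries was unusual could not be settled from the sources used here. Where leaving out ileum crypt 3 changed a call of a named P450 gene, the value without it is given too. Xist, which is transcribed from the inactive X chromosome of female cells, was at 204 to 1483 CPM of the total count in all 8 sorted libraries and, among crypt libraries, at 1758 CPM in number 1 of ileum and at 1158 CPM in number 2 of jejunum, but at 2.50 to 3.03 CPM in the other 4 crypt libraries, although every library is labelled male.

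P450 transcripts were most abundant in jejunum crypt cells and scarce in both sorted populations. The 90 genes together summed to 472 and 512 CPM in ileum CD166 libraries, against 712 and 904 CPM in jejunum CD166 libraries. LGR5 libraries summed to 500.5 and 483 CPM in ileum, against 799 and 637 CPM in jejunum. Crypt libraries 1 to 3 summed to 1750, 1437 and 4235 CPM in ileum, against 4174, 10950 and 7773 CPM in jejunum. Every sorted library was below every crypt library, and within each sorted population both ileum libraries were below both jejunum libraries, whereas in crypt cells ileum crypt 3 lay just above jejunum crypt 1. P450 genes took 0.0487% to 0.0890% of all counts in sorted libraries and 0.145% to 0.967% in crypt libraries.

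**Figure D1:**
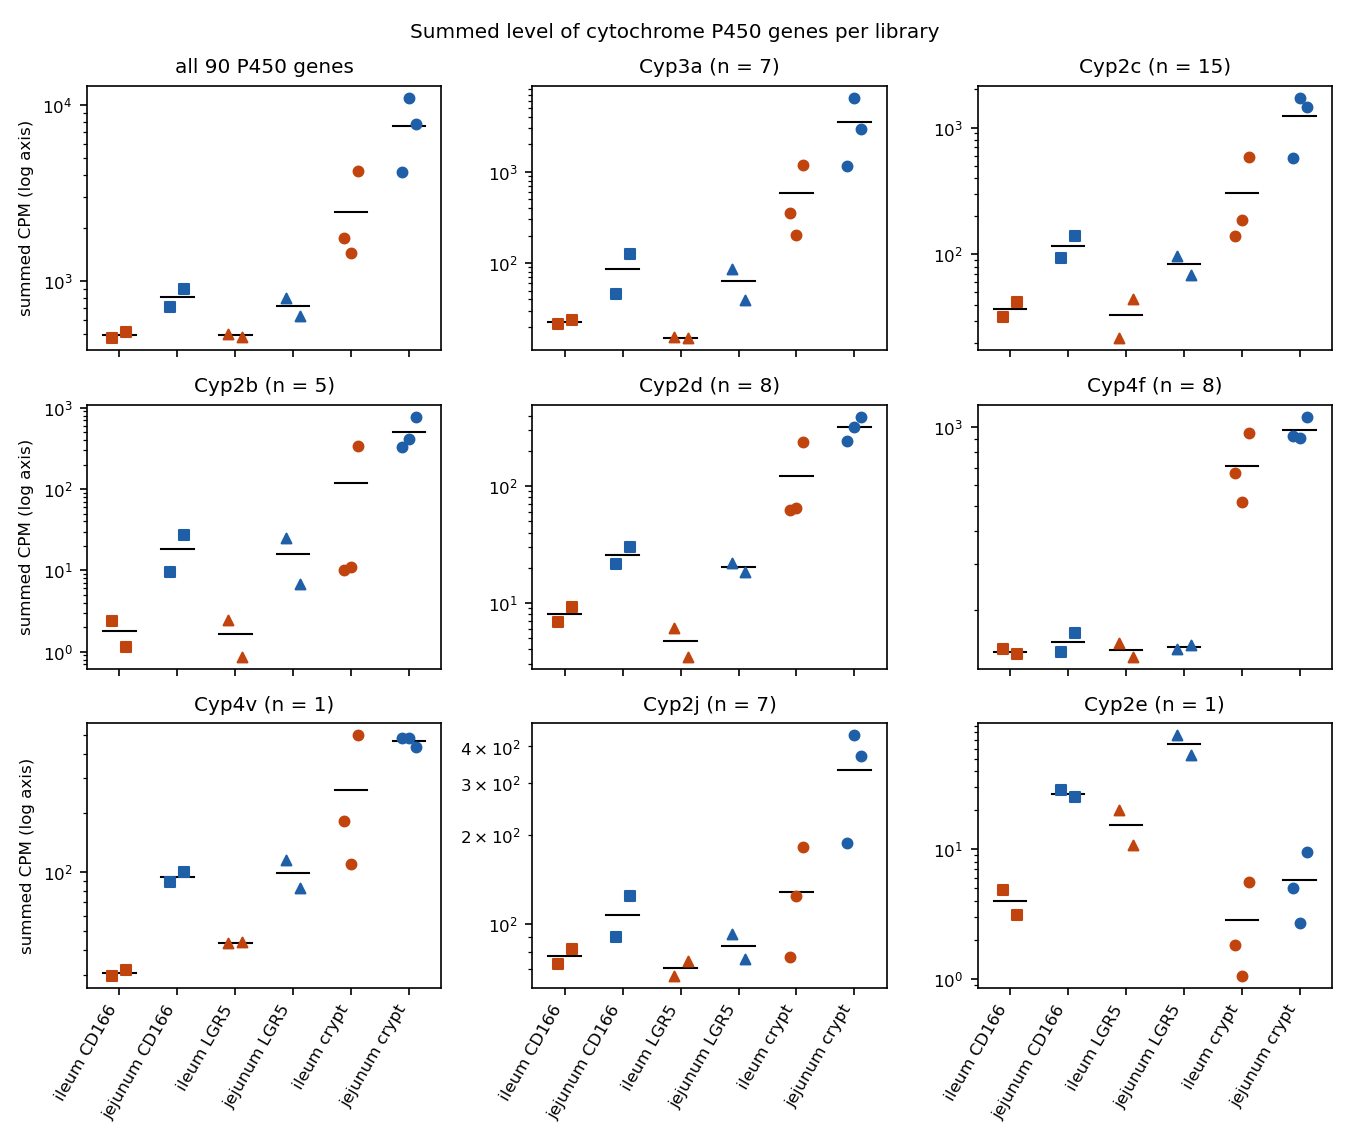
Summed TMM-normalised CPM (log axis) of all 90 P450 genes and of 8 subfamilies in each library, with n the number of genes in the sum. Points are libraries, bars are group means, orange is ileum and blue is jejunum. In the sum of all 90 genes sorted libraries lie at 472 to 904 CPM and crypt libraries at 1437 to 10950 CPM, while in the Cyp2e panel LGR5 libraries lie above crypt libraries.

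The P450 sum was set beside the enterocyte marker sum in every library. It equalled 17.02% and 16.6% of that sum in ileum CD166 libraries, against 14.7% and 15.99% in jejunum CD166 libraries. LGR5 cells equalled 17.8% and 16.9% in ileum, against 18.2% and 18.45% in jejunum. In crypt cells the shares were 11.9%, 13.6% and 13.6% in ileum, against 13.2%, 16.75% and 16.8% in jejunum. Both sums spanned more than an order of magnitude over the 14 libraries, while the share ran from 11.9% to 18.45%. Every LGR5 share lay above every crypt share. All 20 markers were detected in every group, but the makeup of their sum differed. In ileum LGR5 1, Cdh17 and Vil1 read 819 and 581 CPM of 2813, and Alpi and Lct 5.61 and 2.39. In ileum crypt 1, Cdh17 and Vil1 read 1097 and 1165 CPM of 14700, and Alpi and Lct 208 and 112. The share therefore depends on which genes were summed. The list holds genes that are themselves higher in the upper small intestine, such as Lct, Apoa4 and Fabp1, and the part of enterocyte content in the P450 differences was not tested. In these bulk libraries fewer cells of a type and less RNA per cell cannot be told apart.

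**Figure D2:**
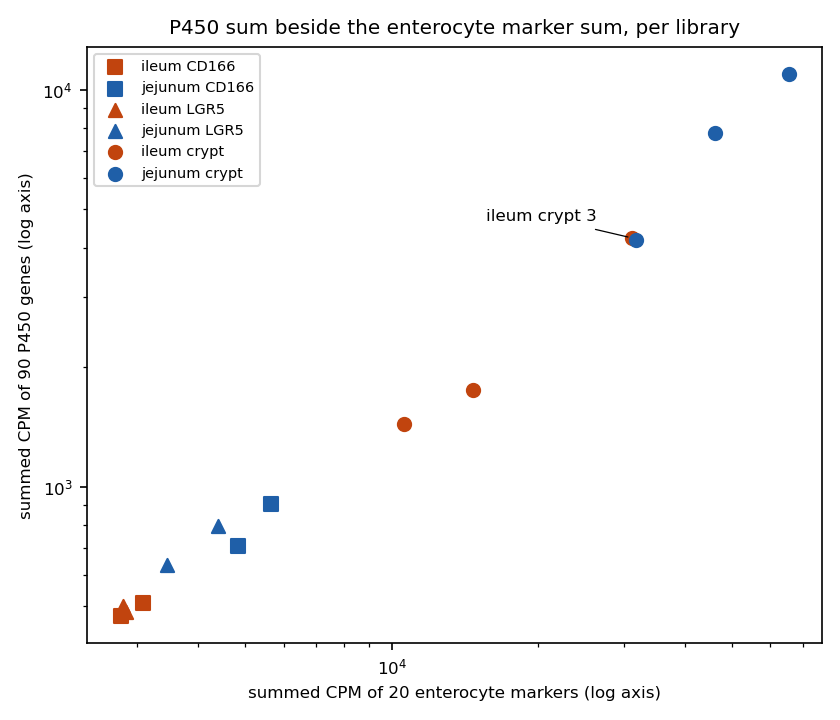
Summed CPM of the 90 P450 genes against summed CPM of 20 enterocyte markers, 1 point a library, both axes logarithmic. The points run along 1 band from the sorted libraries at the lower left to the jejunum crypt libraries at the upper right, and the library labelled ileum crypt 3 lies on jejunum crypt 1.

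The Cyp3a share of the sum was lower in sorted than in crypt libraries, though the ranges nearly met, and the Cyp4f share overlapped. Cyp3a genes supplied 58.6% of the P450 sum in jejunum crypt 2 and 14.05% to 38.0% in the other crypt libraries, but 3.07% to 14% in sorted libraries. Cyp4f genes supplied 17.8% to 30.1% in sorted libraries and 8.31% to 38.0% in crypt libraries. Per kilobase of exon, the gene with the highest mean was Cyp4f14 in ileum CD166 cells (24.4 ± 0.779 CPM per kb, SD, n = 2), in ileum LGR5 cells (21.0 ± 4.28) and in ileum crypt cells (206 ± 84.1, n = 3). In jejunum it was Cyp2c65 in CD166 cells (34.5 ± 3.46 CPM per kb, n = 2), next to Cyp4f14 (30.7 ± 7.87). In jejunum LGR5 cells Cyp2e1 led (29.9 ± 7.41 CPM per kb), next to Cyp2c65 (27.5 ± 6.57). In jejunum crypt cells Cyp3a11 led (432 ± 372 CPM per kb, n = 3), next to Cyp4f14 (310 ± 31.7). Except in ileum CD166 cells, where Cyp2j6 followed at 20.3 ± 1.32 CPM per kb, the first and second genes of a group differed by less than the sum of their SDs.

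Of the 90 genes, 12 had no count in any library and 48, these 12 among them, were too low to test, with at most 1.44 CPM in any library and 47 of them under 1 CPM in every library. Untested were the retinoic acid hydroxylases (Cyp26a1, Cyp26b1, Cyp26c1), the bile acid enzymes Cyp7a1, Cyp7b1 and Cyp8b1, the steroid hormone genes other than Cyp17a1, and all 4 Cyp2a genes. The other 42 entered the tests. A gene that is high in 1 group and near 0 elsewhere passes such a filter because of that group, so counts over the 42 describe them and support nothing further. In 12 of the 42 at least 1 group held 3 counts or fewer, and for those only levels are given, with no fold change.

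Promoter letters are shown for 5 genes that carry the main patterns. Cyp3a11, Cyp3a25, Cyp2b10 and Cyp1a1 were on average far higher in crypt than in sorted cells, and Cyp2e1 was higher in LGR5 cells. For Cyp2b10 and Cyp1a1, ileum crypt 1 and ileum crypt 2 lay within the range of the sorted libraries, as did ileum crypt 2 for Cyp3a11. Each run is the 250 bases before the start listed by RefSeq on GRCm38.p6, 5′ to 3′ on the gene's strand, at chr5:145879855-145880104 (minus strand) for Cyp3a11, chr5:146009618-146009867 (minus) for Cyp3a25, chr7:25897408-25897657 (plus) for Cyp2b10, chr9:57697363-57697612 (plus) for Cyp1a1 and chr7:140763569-140763818 (plus) for Cyp2e1. Capitals mark matches on either strand to any of 5 motifs. The nuclear receptor motif, bound by many receptors of this class, is AGGTCA. The aryl hydrocarbon receptor motif is spelled GCGTG. The motif of the hepatocyte factor HNF1 is spelled GTTAAT. The motif of the GATA factors is spelled AGATAA. The motif of the intestinal CDX factors is spelled TTTATG.
Cyp3a11: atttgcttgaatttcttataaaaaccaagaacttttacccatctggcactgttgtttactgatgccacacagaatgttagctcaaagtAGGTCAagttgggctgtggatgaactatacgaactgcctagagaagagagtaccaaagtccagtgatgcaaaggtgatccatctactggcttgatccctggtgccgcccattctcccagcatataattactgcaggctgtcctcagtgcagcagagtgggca
Cyp3a25: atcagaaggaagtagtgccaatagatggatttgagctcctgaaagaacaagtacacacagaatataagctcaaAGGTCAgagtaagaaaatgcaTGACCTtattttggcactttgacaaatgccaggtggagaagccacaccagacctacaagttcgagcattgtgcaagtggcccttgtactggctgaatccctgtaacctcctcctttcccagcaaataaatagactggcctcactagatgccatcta
Cyp2b10: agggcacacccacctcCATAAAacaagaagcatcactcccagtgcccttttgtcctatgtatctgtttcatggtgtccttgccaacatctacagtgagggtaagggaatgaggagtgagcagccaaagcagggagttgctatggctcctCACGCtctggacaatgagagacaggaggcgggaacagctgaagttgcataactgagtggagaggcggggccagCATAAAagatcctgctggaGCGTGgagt
Cyp1a1: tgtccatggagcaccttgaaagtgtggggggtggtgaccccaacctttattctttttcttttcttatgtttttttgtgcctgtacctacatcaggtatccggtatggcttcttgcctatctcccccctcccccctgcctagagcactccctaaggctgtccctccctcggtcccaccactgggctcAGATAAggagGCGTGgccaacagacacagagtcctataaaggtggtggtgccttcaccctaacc
Cyp2e1: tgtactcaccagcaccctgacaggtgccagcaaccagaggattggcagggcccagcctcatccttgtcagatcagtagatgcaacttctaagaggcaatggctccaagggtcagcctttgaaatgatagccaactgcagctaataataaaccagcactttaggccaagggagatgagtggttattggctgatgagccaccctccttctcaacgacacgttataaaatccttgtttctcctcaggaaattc
The nuclear receptor motif occurred once in Cyp3a11 and in both orientations in Cyp3a25. The aryl hydrocarbon receptor and GATA motifs occurred once each in Cyp1a1, the aryl hydrocarbon receptor and CDX motifs in more than 1 copy each in Cyp2b10, and none of the 5 in Cyp2e1. In these runs no motif overlapped another. Of 32851 promoters of this length, 14% held the nuclear receptor motif, 28.2% the aryl hydrocarbon receptor motif, 6.4% the HNF1 motif, 10% the GATA motif and 10.8% the CDX motif. Of 80 promoters of 70 P450 genes, 18 held the nuclear receptor motif, 15 the aryl hydrocarbon receptor motif, 10 the HNF1 motif, 15 the GATA motif and 9 the CDX motif. A match or its absence in these windows describes letters only.

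Reads of 50 bases cannot always be assigned within a subfamily. In GENCODE M21 exons, 80.2% of 50-base windows of Cyp3a25 matched another P450 gene within 2 mismatches, mostly Cyp3a59, and so did 66.3% of Cyp2c65, 65.0% of Cyp2c66, 96.2% of Cyp2c68, 88.1% of Cyp3a44, 75.5% of Cyp4a10 and 79.3% of Cyp4a32. The share was 25.6% for Cyp3a11, 35.1% for Cyp2b10, 39.0% for Cyp4f16 and 12.6% for Cyp4f14, and 2.3% or less for Cyp3a13, Cyp2e1, Cyp4v3, Cyp2u1, Cyp2w1, Cyp2s1, Cyp39a1 and Cyp27a1. How the authors counted shared reads is not given in the sources used here, so values of single Cyp2c, Cyp3a and Cyp4a genes are uncertain, while subfamily sums do not depend on how reads were split among the genes summed. The sums leave out Cyp3a41a, Cyp3a41b, Cyp4a12a and Cyp4a12b, and Cyp3a41a was the closest match of Cyp3a11 (20.1% of windows), Cyp3a16 (38.4%) and Cyp3a44 (54.5%), so the Cyp3a sum still depends on how reads were split with it.

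The study's title names the region as its main question. Over the 3 populations, 15 of 42 tested P450 genes passed an adjusted p under 0.05 between ileum and jejunum, 2 higher and 13 lower in ileum (edgeR quasi-likelihood test, 7 libraries against 7). Of all 14750 tested genes 5.01% were called, 2.99% higher and 2.02% lower. Below 0 were 35 of the 42 P450 log2 differences, and 51.8% of all tested genes. The median was -1.27 for the 42, -0.75 for the 30 with more than 3 counts in every group, and -0.01 for all tested genes. Among the 23 P450 genes with a mean of at least 10 CPM over all libraries, 9 were lower and 0 higher. That mean is weighted toward the jejunum crypt libraries, where P450 sums were highest, so this count describes the 23 and supports nothing further. Without ileum crypt 3, 23 P450 genes were called, 2 higher and 21 lower, all 15 of the first set among them. Leaving out a sorted library leaves its group with 1 library, assumed to vary like the others. The count was 10 without ileum crypt 2, 9 without jejunum crypt 3, 8 without ileum LGR5 1, 8 without jejunum CD166 1, 5 without ileum CD166 2, 4 without ileum LGR5 2, 4 without ileum CD166 1, 3 without jejunum CD166 2, 2 without jejunum LGR5 1 and 1, Cyp4f15, without jejunum LGR5 2. Over all genes the calls likewise varied, with 739 in the fit of all 14 libraries, 1269 without ileum crypt 3 and 138 without jejunum LGR5 2.

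By subfamily, 8 of the 20 tested sums were called between regions (4.96% of rows in that table, 1.98% lower). Lower in ileum were Cyp3a (log2 -2.19 ± 0.50, a standard error, as for every log2 difference here; adjusted p = 0.029), Cyp2c (-1.67 ± 0.37, adjusted p = 0.028), Cyp2d (-1.71 ± 0.33, adjusted p = 0.016), Cyp4v, Cyp2e and Cyp4a, and higher in ileum were Cyp2u and Cyp2w, single-gene subfamilies. The Cyp2b, Cyp1a, Cyp2j, Cyp4b and Cyp4f sums did not pass, with Cyp4f at -0.21 ± 0.14. The number called was 12 without ileum crypt 3, 5 without jejunum crypt 3, 3 without ileum LGR5 1, 2 without either ileum CD166 library, 1 without ileum LGR5 2, 1 without either jejunum CD166 library and 0 without either jejunum LGR5 library.

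Among the xenobiotic genes, 10 of 22 tested were lower in ileum and 1 higher (2.02% lower and 2.99% higher among all tested genes). Cyp3a11, the main inducible Cyp3a enzyme of mouse liver and gut, read 3.05 and 4.02 CPM in ileum CD166 cells, against 11.8 and 56.2 CPM in jejunum CD166 cells. In LGR5 cells it read 2.76 and 0.753 CPM in ileum, against 42.7 and 13.1 CPM in jejunum. Crypt libraries 1 to 3 read 93.5, 39.3 and 582 CPM in ileum, against 564, 4273 and 1763 CPM in jejunum. Ileum lay below jejunum in both sorted populations without overlap, and in crypt cells ileum crypt 3 overlapped jejunum crypt 1. In LGR5 cells 28.9% of all tested genes lay wholly lower in ileum and 27.4% wholly higher. In CD166 cells the shares were 21.3% lower and 17.6% higher. Such separation within a sorted population is therefore common, here and for the genes below. The difference was -3.47 ± 0.76 on the log2 scale, 11.1-fold lower in ileum (adjusted p = 0.026), and 16.95-fold lower without ileum crypt 3 (adjusted p = 0.0033). The call was lost without any 1 of 7 sorted libraries, all but jejunum CD166 1, with an adjusted p of up to 0.12.

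Cyp3a25, a close relative whose reads overlap those of Cyp3a59, fell in ileum by 2.50 ± 0.49 (adjusted p = 0.017). Sorted libraries held 0.538 to 3.51 CPM in ileum, against 6.82 to 21.1 CPM in jejunum, with no overlap. Crypt libraries held 62.9, 54.4 and 214 CPM in ileum, against 213, 710 and 340 CPM in jejunum. Cyp3a13, an intestinal Cyp3a gene that shares few reads with the others, read 193, 107 and 381 CPM in ileum crypt libraries, against 378, 1428 and 848 CPM in jejunum crypt libraries. Its difference of -1.35 ± 0.35 missed the threshold (adjusted p = 0.051) and passed it without ileum crypt 3 (-1.55 ± 0.32, adjusted p = 0.014). Cyp3a59 was also called (adjusted p = 0.017), at 0 to 0.915 CPM in ileum libraries and 0.689 to 2.07 CPM in jejunum libraries.

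In the Cyp2c group, Cyp2c65 and Cyp2c66, gut-expressed genes whose enzymes act on arachidonic acid, were called lower in ileum. Cyp2c65 read 12.4 and 15.4 CPM in ileum CD166 cells, against 61.7 and 71.2 CPM in jejunum CD166 cells. LGR5 libraries read 8.09 and 13.9 CPM in ileum, against 61.9 and 44.0 CPM in jejunum. Crypt libraries read 39.9, 70.4 and 257 CPM in ileum, against 253, 493 and 446 CPM in jejunum. Both sorted populations separated the regions fully, as many tested genes did, and the difference was -2.07 ± 0.39, 4.21-fold lower in ileum (adjusted p = 0.014). For Cyp2c66 it was -3.60 ± 0.85, 12.1-fold lower (adjusted p = 0.033), and 19.7-fold lower without ileum crypt 3 (adjusted p = 0.0023). Cyp2c29, an arachidonic acid epoxygenase, read 0 to 14.98 CPM in ileum libraries and 0.964 to 299.8 CPM in jejunum libraries and passed only just (adjusted p = 0.0498). Cyp2c70, which makes muricholic acids in mouse liver, stayed at 0 to 0.457 CPM in ileum libraries and 0.0918 to 1.39 CPM in jejunum libraries and was called (adjusted p = 0.032). Cyp2c55 (-1.33 ± 0.37, adjusted p = 0.066) and Cyp2c68 (-0.12 ± 0.29) did not pass. Cyp2c55, but not Cyp2c68, was called lower in ileum without ileum crypt 3 (-1.49 ± 0.36, adjusted p = 0.031). Cyp2c38 and Cyp2c44 were at 0 to 0.298 CPM in sorted libraries, and neither passed between regions.

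Cyp2b10, the standard target gene of the receptor CAR, depended on 1 library. It read 2.31 and 1.15 CPM in ileum CD166 cells, against 9.58 and 27.2 CPM in jejunum CD166 cells. LGR5 cells held 2.48 and 0.861 CPM in ileum, against 25.0 and 6.80 CPM in jejunum. Crypt libraries 1 to 3 held 10.1, 11.0 and 338 CPM in ileum, against 331, 408 and 774 CPM in jejunum. Apart from the library labelled ileum crypt 3, each ileum library lay below each jejunum library of its population. Over all libraries the difference of -2.90 ± 0.86 did not pass (adjusted p = 0.082), and without ileum crypt 3 it was -4.07 ± 0.46, 16.8-fold lower in ileum (adjusted p = 4.9e-04). Cyp1a1, the standard target of the aryl hydrocarbon receptor, was at 0 to 0.191 CPM in ileum sorted libraries and 0.0819 to 1.07 CPM in jejunum sorted libraries. Crypt libraries held 0.342, 0.603 and 12.2 CPM in ileum, against 9.73, 52.5 and 22.8 CPM in jejunum. Cyp1a1 likewise passed only without ileum crypt 3 (adjusted p = 0.25 with it, 0.021 without it).

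The Cyp2d genes Cyp2d26 and Cyp2d22 fell in ileum by 1.79 ± 0.35 (adjusted p = 0.016) and by 1.52 ± 0.37 (adjusted p = 0.037). Cyp2d26 read 6.00 and 7.78 CPM in ileum CD166 cells, against 20.2 and 27.4 CPM in jejunum CD166 cells. It read 5.61 and 2.58 CPM in ileum LGR5 cells, against 20.39 and 16.7 CPM in jejunum LGR5 cells. Cyp2s1, a P450 of epithelial surfaces, was not called between regions (0.19 ± 0.16, adjusted p = 0.65), at 64.2 to 138 CPM in ileum libraries and 55.7 to 125 CPM in jejunum libraries. Cyp2w1, best known from fetal gut and colon tumours in humans, was the xenobiotic gene higher in ileum, by 2.40 ± 0.55 (adjusted p = 0.031), at 0.801 to 4.96 CPM in ileum libraries and 0.0744 to 1.19 CPM in jejunum libraries.

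Of 15 tested fatty acid and eicosanoid genes, 3 were lower and 1 higher in ileum (2.02% lower and 2.99% higher among all tested genes). Cyp4f15, a fatty acid hydroxylase, read 1.11 and 1.66 CPM in ileum CD166 cells, against 3.38 and 4.32 CPM in jejunum CD166 cells. In LGR5 cells it read 1.56 and 0.538 CPM in ileum, against 8.35 and 11.6 CPM in jejunum. In crypt cells it read 0.684, 1.51 and 1.60 CPM in ileum, against 2.11, 3.78 and 3.54 CPM in jejunum. All 7 ileum libraries lay below all 7 jejunum libraries, which held for no other P450 gene and for 0.163% of tested genes, while 0 P450 genes and 0.237% of tested genes lay wholly above. The difference was -2.00 ± 0.31, 3.99-fold lower in ileum (adjusted p = 0.0077), and it was the 1 P450 call between regions kept in all 14 fits that left out a library, with an adjusted p of at most 0.041. It was also the 1 call within LGR5 cells (-3.22 ± 0.59, adjusted p = 0.044). That call was lost in 9 of 14 fits, those without ileum LGR5 2, either jejunum LGR5 library, any CD166 library, ileum crypt 1 or jejunum crypt 3, with an adjusted p of up to 0.42, and without ileum LGR5 1 the difference was -4.19. About 11.9% of its 50-base windows matched another P450 gene within 2 mismatches.

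Cyp4v3, a fatty acid hydroxylase whose human counterpart is mutated in a retinal dystrophy, fell by 1.21 ± 0.28 in ileum (adjusted p = 0.032). It read 29.6 and 31.8 CPM in ileum CD166 cells, against 88.7 and 100.1 CPM in jejunum CD166 cells. LGR5 libraries read 43.5 and 43.8 CPM in ileum, against 115 and 83.1 CPM in jejunum. Crypt libraries overlapped, at 181, 109 and 495 CPM in ileum, against 478, 481 and 433 CPM in jejunum. Cyp4a32, a fatty acid hydroxylase whose reads overlap those of Cyp4a10, was at 0 to 0.114 CPM in ileum libraries and 0.109 to 2.38 CPM in jejunum libraries (adjusted p = 0.012). Cyp4a10, a known PPAR alpha target, was at 0 to 1.83 CPM in ileum libraries and 0.119 to 18.9 CPM in jejunum libraries and did not pass (adjusted p = 0.13), but was called lower in ileum without ileum crypt 3 (adjusted p = 0.014). Cyp2u1, which hydroxylates long-chain fatty acids, went the other way, at 7.20 and 4.91 CPM in ileum CD166 cells, against 0.896 and 2.23 CPM in jejunum CD166 cells. In LGR5 cells it read 6.25 and 9.58 CPM in ileum, against 1.55 and 1.56 CPM in jejunum. Its difference was 1.75 ± 0.32, 3.37-fold higher in ileum (adjusted p = 0.013), and crypt libraries overlapped, at 5.72 to 15.98 CPM in ileum and 3.42 to 7.36 CPM in jejunum.

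Other abundant fatty acid genes were not called between regions. Cyp4f14, a leukotriene and vitamin E hydroxylase, read 43.4 to 724 CPM in ileum libraries and 50.05 to 839 CPM in jejunum libraries (log2 -0.36 ± 0.18, adjusted p = 0.36). Cyp4f13 (-0.16 ± 0.11), Cyp4f16 (-0.37 ± 0.12), Cyp4f40 (0.75 ± 0.23), Cyp4b1 (-0.81 ± 0.26), Cyp2j6 (-0.70 ± 0.23) and Cyp2j9 (-0.80 ± 0.30) also missed the threshold, with adjusted p from 0.096 to 0.55. Without ileum crypt 3 the differences of Cyp4b1 (-0.95 ± 0.24, adjusted p = 0.037), Cyp2j6 (-0.81 ± 0.21, adjusted p = 0.039) and Cyp2j9 (-1.01 ± 0.26, adjusted p = 0.037) passed, each lower in ileum. With jejunum crypt 1 left out in its place, Cyp2j6, Cyp2c55 and Cyp3a13 likewise passed between regions. Cyp2b10, Cyp1a1, Cyp4a10, Cyp4b1 and Cyp2j9 did not. In all 3 populations at once, every ileum library lay below every jejunum library of its population for 6 P450 genes (Cyp2c29, Cyp2d26, Cyp2j6, Cyp3a59, Cyp4b1 and Cyp4f15), against 1.44% of tested genes, and above it for 0, against 1.45%.

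Of the other calls between regions, crypt libraries ended a few. Without ileum crypt 2 the calls of Cyp2c29, Cyp2c66, Cyp2c70, Cyp2d22 and Cyp2w1 were lost, without jejunum crypt 2 those of Cyp2c29 and Cyp2c66, and without jejunum crypt 3 those of Cyp2c29, Cyp2c66, Cyp2c70, Cyp2d22, Cyp2w1 and Cyp4v3. Losses were more frequent without a sorted library. Over the 14 fits that each left out 1 library, Cyp2c29 and Cyp2c66 were each lost in 11, Cyp2c70 in 10, and Cyp2d22, Cyp2w1 and Cyp4v3 each in 9. The highest adjusted p was 0.22 for Cyp2c29, 0.15 for Cyp2d22 and 0.11 to 0.13 for the other 4. Cyp2d26, Cyp2e1 and Cyp3a25 were each lost in 6 of these fits, Cyp2c65 and Cyp3a59 in 5 and Cyp2u1 in 3, with an adjusted p of at most 0.073. Each of these differences kept its sign in all 14 fits. Cyp4a32 was lost without jejunum LGR5 2 alone (adjusted p = 0.056).

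**Figure D3:**
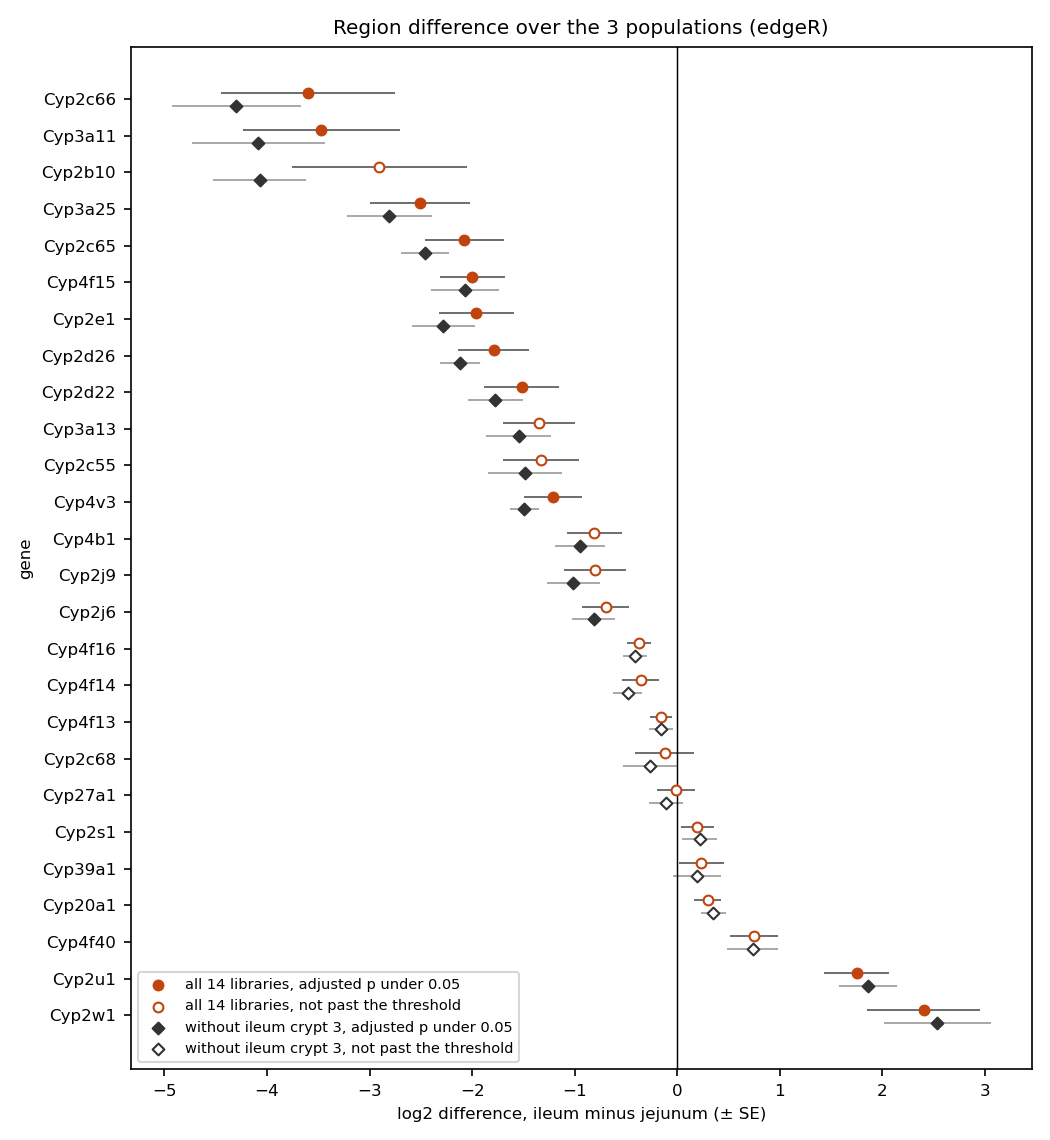
Log2 difference, ileum minus jejunum, over the 3 populations for P450 genes that were called or reached 10 CPM in a group and had more than 3 counts in every group; bars are standard errors. Orange circles are fits of all 14 libraries and dark diamonds fits without ileum crypt 3, filled where the adjusted p was under 0.05. Without that library Cyp2b10 lies at -4.07 in place of -2.90 and passes, while Cyp2u1 and Cyp2w1 lie above 0 in both fits.

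Within single populations the region tests called little. In CD166 cells 0 P450 genes were called (0.0203% of all tested genes, 0.0136% higher and 0.00678% lower; 16 P450 genes at an unadjusted p under 0.05, 1 by DESeq2 and 0 by limma-voom). In LGR5 cells 1 was called (0.698% of tested genes, 0.569% higher and 0.129% lower; 16 unadjusted). In crypt cells 0 were called (0.0% of tested genes; 21 unadjusted, 3 by DESeq2, 0 by limma-voom), but 13 were called lower in ileum without ileum crypt 3 (614 of 14740 tested genes in either direction) and 1 without jejunum crypt 1 (100 of 14737). The joint test of whether the region difference differed between populations called 0 P450 genes (0.0136% of tested genes; 3 unadjusted, 0 by DESeq2, 0 by limma-voom). The medians of the 42 log2 differences were -1.46 in CD166 cells, -1.17 in LGR5 cells and -1.24 in crypt cells, and those of the 30 genes with more than 3 counts in every group were -0.69 in CD166 cells, -0.50 in LGR5 cells and -0.99 in crypt cells.

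Set against crypt cells, sorted cells of both kinds held far less of most P450 transcripts. Between CD166 and crypt cells 29 of 42 genes were called, 3 higher and 26 lower (30.1% of all tested genes, 13.6% higher and 16.5% lower). Between LGR5 and crypt cells 33 were called, 4 higher and 29 lower (31.5% of tested genes, 13.0% higher and 18.5% lower). Of the 20 subfamily sums tested, 15 were called in CD166 cells (30% of rows) and 16 in LGR5 cells (31.3% of rows). The comparisons share the crypt libraries: 26 genes were lower in both, 3 were higher in both (Cyp20a1, Cyp2e1 and Cyp39a1), and 4 were called in LGR5 cells alone, Cyp3a59, Cyp4f18 and Cyp17a1 lower and Cyp4f17 higher. Cyp17a1, a steroid hydroxylase, was named after its values were seen. The median log2 difference of the 42 genes was -1.70 for CD166 cells and -2.29 for LGR5 cells, and -1.41 and -1.55 for the 30 with more than 3 counts in every group, against 0.02 and -0.01 for all tested genes. Among the 23 genes with a mean of at least 10 CPM, 20 were lower and 3 higher in CD166 cells, and 20 were lower and 3 higher in LGR5 cells. Genes high in crypt libraries reach that mean through them, so these counts describe the 23 and support nothing further. Cyp2s1 lost its call in CD166 cells in 9 of 14 fits without 1 library and Cyp2u1 lost its call in LGR5 cells in 8, with an adjusted p of up to 0.15, while Cyp3a44, Cyp3a59, Cyp4a10 and Cyp4f18, all at low counts, lost theirs in 5 to 12. Without ileum crypt 3 the call of Cyp3a59 in LGR5 cells (adjusted p = 0.089) and both calls of Cyp4a10 (adjusted p = 0.9998 in CD166 cells and 0.88 in LGR5 cells) were lost. Every sorted library lay below every crypt library for 9 of the 42 genes, against 8.38% of tested genes, and above for 1, Cyp39a1, against 5.16%.

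Cyp3a11 showed one of the steepest gradients, at 3.05 to 56.2 CPM in CD166 libraries, 0.753 to 42.7 CPM in LGR5 libraries and 39.3 to 4273 CPM in crypt libraries. It fell by 6.04 ± 1.05 in CD166 cells (65.8-fold, adjusted p = 0.0019) and by 6.68 ± 1.10 in LGR5 cells (102.5-fold, adjusted p = 0.0014). Without ileum crypt 3 the log2 difference was -5.12 in CD166 cells and -5.76 in LGR5 cells. Without jejunum CD166 2 that of CD166 cells was -6.82, and without ileum LGR5 1 that of LGR5 cells was -7.30. Cyp3a25 fell by 5.11 ± 0.63 in CD166 cells (34.6-fold) and by 5.94 ± 0.68 in LGR5 cells (61.6-fold). Cyp3a13 fell by 4.20 ± 0.49 in CD166 cells (18.4-fold) and by 4.76 ± 0.50 in LGR5 cells (27.1-fold). For both genes each sorted library lay below each crypt library, with 15.8 to 47.5 CPM of Cyp3a13 in CD166 libraries, 10.8 to 28.3 CPM in LGR5 libraries and 107 to 1428 CPM in crypt libraries.

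The Cyp2c sum fell by 3.23 ± 0.49 in CD166 cells and by 3.56 ± 0.50 in LGR5 cells, and the Cyp2d sum by 3.77 ± 0.43 in CD166 cells and by 4.33 ± 0.45 in LGR5 cells. Cyp2c55, an arachidonic acid hydroxylase, read 4.34 to 19.9 CPM in CD166 libraries, 3.95 to 14.9 CPM in LGR5 libraries and 64.4 to 434 CPM in crypt libraries, with no overlap. Cyp2b10 fell by 5.46 ± 1.15 in CD166 cells (44.1-fold) and by 5.56 ± 1.16 in LGR5 cells (47.3-fold). Without ileum crypt 3 it was 13.1-fold lower in CD166 cells and 14.05-fold lower in LGR5 cells. Without jejunum LGR5 1 the LGR5 difference was -6.19. For Cyp2c66 the folds were 44.6 in CD166 cells and 50.5 in LGR5 cells, and without ileum crypt 3 they were 21.6 in CD166 cells and 24.4 in LGR5 cells. Cyp1a1, Cyp2c29, Cyp2c38 and Cyp2c44 were called lower in both sorted populations, with 0 to 6.77 CPM in sorted libraries. Both calls of Cyp2c38 were lost without ileum crypt 3 (adjusted p = 0.067 in CD166 cells and 0.097 in LGR5 cells). Its LGR5 call was lost in 4 of 14 fits that left out 1 library, the Cyp1a1 call in CD166 cells in 3 (adjusted p up to 0.062), and that of Cyp2c29 in 2 in CD166 cells and 1 in LGR5 cells.

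Among the fatty acid genes 9 of 15 fell in CD166 cells, where 16.5% of all tested genes were called lower. Cyp4f14 read 57.7 to 87.8 CPM in CD166 libraries, 43.4 to 62.7 CPM in LGR5 libraries and 329 to 839 CPM in crypt libraries. It fell by 3.21 ± 0.25 in CD166 cells (9.24-fold, adjusted p = 2.3e-05) and fell by 3.52 ± 0.25 in LGR5 cells (11.4-fold, adjusted p = 1.3e-05), with no overlap. In CD166 cells Cyp4v3 fell by 2.69 ± 0.37, Cyp4f40 by 1.93 ± 0.29, Cyp4f16 by 1.47 ± 0.15, the epoxygenase gene Cyp2j6 by 1.22 ± 0.28 and Cyp4f13 by 1.03 ± 0.13. In LGR5 cells Cyp4v3 fell by 2.41 ± 0.36, Cyp4f40 by 2.10 ± 0.29, Cyp4f16 by 1.34 ± 0.15, Cyp2j6 by 1.504 ± 0.28 and Cyp4f13 by 0.62 ± 0.13. Cyp4b1, a fatty acid and furan oxidase, fell by 1.19 ± 0.31 in CD166 cells and by 2.78 ± 0.35 in LGR5 cells. Cyp2s1 fell by 0.59 ± 0.19 in CD166 cells and by 0.81 ± 0.20 in LGR5 cells, and Cyp2u1 by 1.38 ± 0.38 in CD166 cells and by 1.19 ± 0.38 in LGR5 cells. Cyp27a1, the mitochondrial sterol hydroxylase of bile acid synthesis, fell by 2.02 ± 0.23 in CD166 cells and by 1.59 ± 0.23 in LGR5 cells, with 5.72 to 8.77 CPM in CD166 libraries, 8.59 to 11.2 CPM in LGR5 libraries and 14.02 to 39.7 CPM in crypt libraries.

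**Figure D4:**
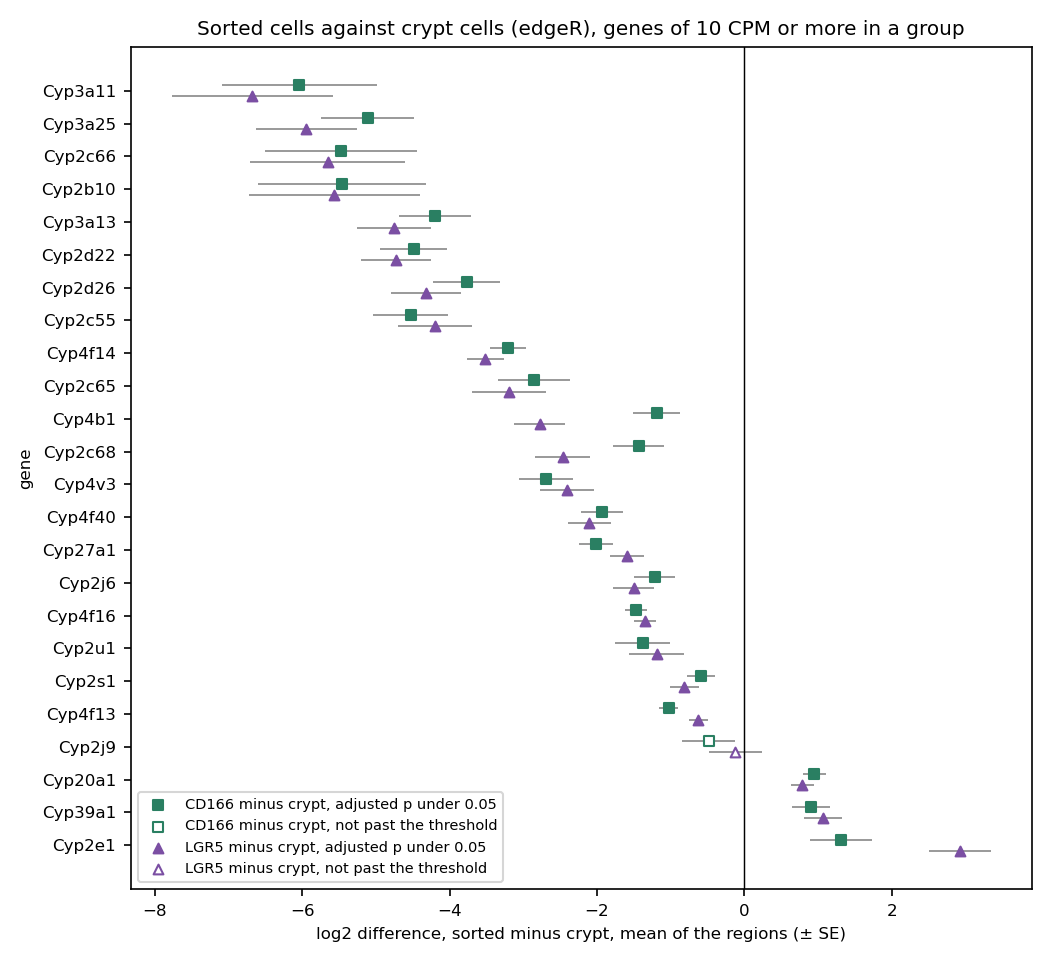
Log2 difference from crypt cells, averaged over the regions, for CD166 cells (green squares) and LGR5 cells (purple triangles), for P450 genes that reached 10 CPM in a group and had more than 3 counts in every group; bars are standard errors and filled symbols passed an adjusted p of 0.05. Most genes lie below 0 for both populations, down to -6.68 for Cyp3a11, and Cyp2e1, Cyp39a1 and Cyp20a1 lie above 0.

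Against this run, 3 genes were higher in sorted cells of both kinds. Cyp2e1, which oxidises ethanol and other small molecules, read 4.802 and 3.12 CPM in ileum CD166 cells, against 28.5 and 25.2 CPM in jejunum CD166 cells. It read 20.04 and 10.8 CPM in ileum LGR5 cells, against 75.9 and 53.3 CPM in jejunum LGR5 cells. In crypt cells it read 1.82, 1.06 and 5.604 CPM in ileum, against 5.05, 2.70 and 9.54 CPM in jejunum. All 4 LGR5 libraries lay above all 6 crypt libraries, while ileum CD166 libraries lay within the crypt range. Cyp2e1 was 7.61-fold higher in LGR5 cells than in crypt cells (log2 2.93 ± 0.42, adjusted p = 6.5e-04) and 2.48-fold higher in CD166 cells (1.31 ± 0.43, adjusted p = 0.039), the second call being lost in 12 of 14 fits that left out 1 library (adjusted p up to 0.14). Between regions it was 3.88-fold lower in ileum (-1.957 ± 0.37, adjusted p = 0.014), lost in 6 of 14 such fits (adjusted p up to 0.064). It was the 1 P450 gene called both lower in ileum and higher in LGR5 cells.

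Cyp39a1, an oxysterol hydroxylase of bile acid synthesis, read 32.1 to 35.4 CPM in CD166 libraries, 32.5 to 48.2 CPM in LGR5 libraries and 6.29 to 25.0 CPM in crypt libraries. It was 1.87-fold higher in CD166 cells (log2 0.90 ± 0.26, adjusted p = 0.023) and 2.10-fold higher in LGR5 cells (1.07 ± 0.26, adjusted p = 0.010). The CD166 call was lost without any 1 CD166 library (adjusted p up to 0.080) and the LGR5 call without ileum LGR5 1 (adjusted p = 0.064). Cyp20a1, an orphan P450 with no settled substrate, was 1.93-fold higher in CD166 cells (0.95 ± 0.16, adjusted p = 0.0014) and 1.72-fold higher in LGR5 cells (0.78 ± 0.16, adjusted p = 0.0041). It read 21.6 to 25.2 CPM in CD166 libraries, 16.4 to 26.5 CPM in LGR5 libraries and 8.81 to 16.7 CPM in crypt libraries. Cyp4f17, a Cyp4f gene of unsettled substrate, was higher in LGR5 cells (1.68 ± 0.33, adjusted p = 0.0036) and missed the threshold in CD166 cells (0.92 ± 0.33, adjusted p = 0.055). Jejunum crypt 2, the library richest in enterocyte and lymphocyte markers and lowest in stem cell markers, held the lowest level of Cyp39a1 and of Cyp20a1. Cyp2e1 was lowest in ileum crypt 2, the crypt library highest in stem cell markers. The part of cell content in these levels was not tested.

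Crypt libraries differed among themselves in what else they held. Intraepithelial lymphocyte markers summed to 6.19 to 37.2 CPM in CD166 libraries, 8.46 to 34.9 CPM in LGR5 libraries and 103 to 10620 CPM in crypt libraries, the highest in jejunum crypt 2, which also held the highest Cyp3a11. Crypt cells were also restricted to the 1 library a region high in Xist like the sorted libraries, ileum crypt 1 and jejunum crypt 2. These held the most lymphocyte markers, and 1 library a group gives no crypt spread, so no errors are given. In that fit Cyp3a11 differed by -5.87 on the log2 scale in CD166 cells and by -6.50 in LGR5 cells. Cyp2e1 was higher by 2.17 in CD166 cells and by 3.80 in LGR5 cells. Cyp4f14 fell by 3.12 in CD166 cells and by 3.42 in LGR5 cells. Between CD166 and LGR5 cells 0 P450 genes were called (1.61% of tested genes, each of them higher in CD166 cells; 4 at an unadjusted p under 0.05, 2 by DESeq2, 1 by limma-voom). Of the subfamily sums 0 were called (1.62% of rows; 2 unadjusted, 2 by DESeq2, 1 by limma-voom). Cyp4b1 came nearest, at 10.3 to 29.9 CPM in CD166 libraries and 4.69 to 10.02 CPM in LGR5 libraries (log2 1.58 ± 0.35, adjusted p = 0.051), and Cyp2e1 differed by -1.62 ± 0.46 (adjusted p = 0.17).

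**Figure D5:**
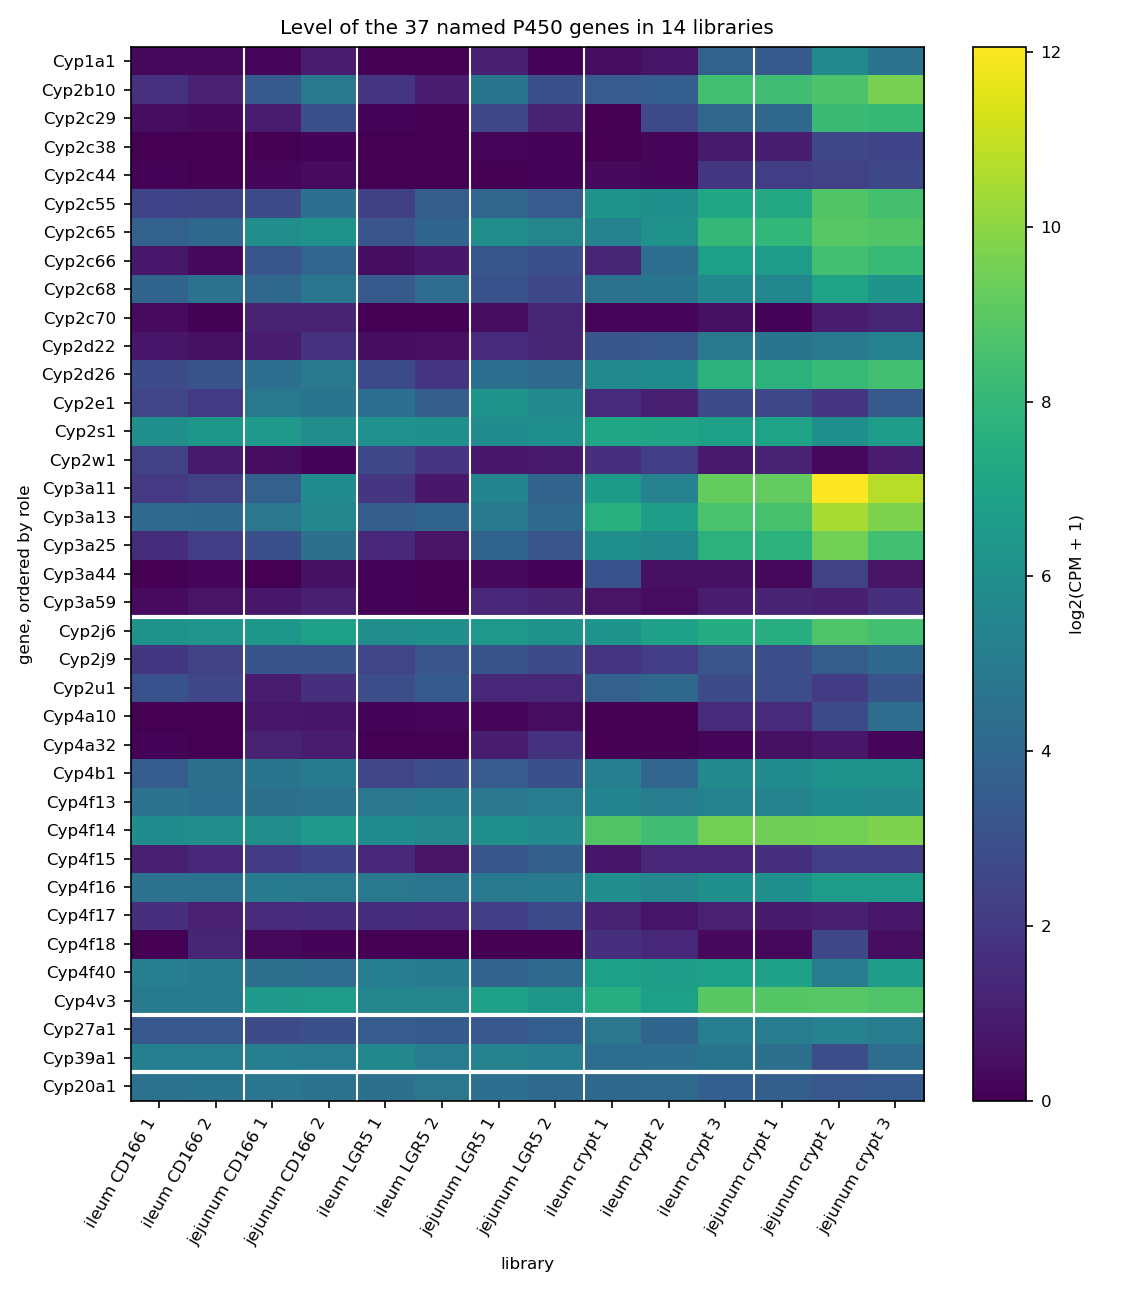
Level, as log2 of CPM plus 1, of the 37 named P450 genes in each of the 14 libraries. These had the largest called changes of a comparison or a mean of at least 10 CPM in a group. Cyp17a1, called in LGR5 cells, is not among them. Rows are ordered by role, from xenobiotic genes at the top through fatty acid genes to sterol genes and Cyp20a1. The Cyp2c and Cyp3a rows are brightest in crypt columns, where ileum crypt 3 resembles jejunum crypt 1, and Cyp2e1 is brightest in jejunum LGR5 columns.

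Genes that serve P450 enzymes were read from 3 lists. Of all tested genes, 2.99% were higher and 2.02% lower in ileum, 13.6% higher and 16.5% lower in CD166 than in crypt cells, and 13.0% higher and 18.5% lower in LGR5 than in crypt cells. Of 9 measured electron donors 0 were called between regions (edgeR, 2 at an unadjusted p under 0.05), 4 were lower in CD166 cells, and 5 were lower and 1 higher in LGR5 cells. Por, the shared electron donor, read 48.8 to 91.0 CPM in CD166 libraries, 49.4 to 61.3 CPM in LGR5 libraries and 64.6 to 232 CPM in crypt libraries, a fall of 0.90 ± 0.21 in CD166 cells (adjusted p = 0.0084) and of 1.17 ± 0.21 in LGR5 cells (adjusted p = 0.0024). Among 13 genes of heme synthesis and breakdown, 1 was lower in ileum (Blvrb, biliverdin reductase, -0.59 ± 0.13), 3 were lower and 1 higher in CD166 cells, and 3 were lower in LGR5 cells, shares near those of all tested genes. Alas1, the first enzyme of heme synthesis, fell by 0.85 ± 0.17 in CD166 cells and by 0.87 ± 0.17 in LGR5 cells.

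Of 24 receptors and factors known to control P450 genes, 1 was higher and 2 lower in ileum, 10 were lower in CD166 cells (16.5% of all tested genes) and 8 lower in LGR5 cells (18.5% of all tested genes). Nr1i3, which encodes CAR, read 6.28 and 5.93 CPM in ileum CD166 cells, against 13.6 and 32.1 CPM in jejunum CD166 cells. It read 3.59 and 4.84 CPM in ileum LGR5 cells, against 19.8 and 31.5 CPM in jejunum LGR5 cells. Crypt libraries read 18.4, 24.1 and 65.2 CPM in ileum, against 67.4, 152 and 114 CPM in jejunum. Each ileum library lay below each jejunum library of its population. Nr1i3 fell by 2.05 ± 0.34 in ileum (adjusted p = 0.010), by 2.42 ± 0.42 in CD166 cells and by 2.60 ± 0.43 in LGR5 cells. Nr0b2, which encodes the corepressor SHP, was at 0 to 1.37 CPM in ileum libraries and 0.643 to 7.55 CPM in jejunum libraries (adjusted p = 0.015), and Nr1h4, the bile acid receptor FXR, was higher in ileum by 0.79 ± 0.17 (adjusted p = 0.024).

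Nr1i2, which encodes PXR, was not called between regions and fell by 0.98 ± 0.17 in CD166 cells and by 0.72 ± 0.16 in LGR5 cells, at 49.9 to 56.9 CPM in CD166 libraries, 55.9 to 74.3 CPM in LGR5 libraries and 78.4 to 143 CPM in crypt libraries. Ahrr, the repressor of the aryl hydrocarbon receptor and one of its targets, was at 0 to 0.319 CPM in CD166 libraries, 0 to 0.716 CPM in LGR5 libraries and 0.754 to 16.7 CPM in crypt libraries, highest in ileum crypt 1 and jejunum crypt 2. Hnf4g, a nuclear factor of villus enterocytes, fell by 1.81 ± 0.22 in CD166 cells and by 1.93 ± 0.23 in LGR5 cells.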

How the data were processed

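RNA from 14 mouse libraries was sequenced as single-end reads of 50 bases, per the labels' protocols. The authors deposited expected counts per gene, in files named for RPKM whose values are scaled neither to gene length nor to depth. A second kind of deposited file holds log2 values of the library-scaled count minus the gene's median over the 14 libraries. Both kinds agreed to within 1.1e-06 log2 over the 8826 genes above 50 counts in every library, and the log2 columns were used for that check alone. The submitters' processing notes name DESeq and the build mm9; no source used here names the aligner, the annotation or how shared reads were handled. Of values above 0, 50.6% were whole within 0.001.

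Expected counts were rounded and tested with edgeR 4.0.16 (R 4.3.3): filterByExpr with a minimum count of 10 and total of 15, TMM scaling, 1 mean for each of the 6 groups, a robust quasi-likelihood fit, and Benjamini-Hochberg adjustment over the 14750 genes tested, called at an adjusted p under 0.05. The regional test averages the populations, and each population test averages the regions. Errors after ± are standard errors for log2 differences and SDs for levels. A second table with P450 genes summed by subfamily had 14728 tested rows. CPM are TMM-scaled and levels per kilobase use GENCODE M21 exon unions, found for 87 of 90 genes. The procedure was tested on simulated data.

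The genes named were, per comparison, the 12 with the largest called change in each direction, and those with a mean of at least 10 CPM in a group, 37 in all; genes outside this rule are named as such or as list members. The members and lists were chosen with earlier results of these data known. Other settings tried were no filter, at least 1 CPM in 4 libraries, scaling by DESeq2 size factors, tests by DESeq2 1.42.0 and limma-voom 3.58.1, a replicate block, fits of the compared groups alone, each library and pairs of crypt libraries left out, and, added after the data were seen, only the crypt libraries high in Xist. No coordinates on mm9 are given, since the annotation used was of GRCm38. Groups of 3 summed counts or fewer get no fold change. Totals of 6295828 to 20380369 counts set the precision, and a count of 0 allows up to 3 counts in a library; both cover counting error only.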

Additional observations from a re-analysis of the deposited data

Results flagged for a closer look

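Cyp4a10, a fatty acid hydroxylase gene under PPAR alpha control, had mean levels ordered oppositely in the sorted populations of the regions. In ileum Cyp4a10 held 0 summed counts in CD166 cells and 2 in LGR5 cells, so no direction can be read there. In ileum it averaged 0.0 CPM in CD166 libraries and 0.0998 CPM in LGR5 libraries, with both CD166 libraries below both LGR5 libraries. In jejunum it averaged 0.679 CPM in CD166 libraries and 0.223 CPM in LGR5 libraries, with both CD166 libraries above both LGR5 libraries. Cyp3a59 showed the reverse arrangement, with 1 summed count in ileum LGR5 cells. It averaged 0.425 CPM in CD166 libraries and 0.0460 CPM in LGR5 libraries of ileum, and 0.903 CPM in CD166 libraries and 1.43 CPM in LGR5 libraries of jejunum. This difference between regions in the comparison of CD166 with LGR5 cells was not tested on its own. The joint edgeR test of region by population called neither gene (adjusted p = 0.93 for Cyp4a10 and 0.86 for Cyp3a59). Both genes share most of their 50-base windows with a neighbouring copy, and these levels rest on few counts.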

How the results depend on the processing

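Between regions, 15 P450 genes were called. The number was 23 by DESeq2, 8 by limma-voom, 25 without ileum crypt 3 and jejunum crypt 1 together, 25 with only the crypt libraries high in Xist, and 1 to 23 with 1 library left out; other scaling, the filters and the block gave 13 to 21. Within crypt cells it was 0, and 3 by DESeq2, 19 without that pair, 15 with Xist-high crypt libraries and 0 to 13 with 1 library left out. Within LGR5 cells it was 1, and 2 with the stricter filter, 6 by DESeq2, 2 with the block, 12 with the compared groups alone, 5 without that pair, 5 without ileum crypt 1 and jejunum crypt 2, 10 with Xist-high crypt libraries and 0 to 6 with 1 library left out. Within CD166 cells it was 0, and 1 by DESeq2, 1 with the block, 9 with the compared groups alone, 3 without the first pair, 5 with Xist-high crypt libraries and 0 to 3 with 1 library left out. The test across populations called 1 with Xist-high crypt libraries and 0 to 0 with 1 library left out. Between CD166 and LGR5 cells it was 0, and 2 by DESeq2, 1 by limma-voom, 1 with the block, 2 with the compared groups alone, 1 without the first pair, 2 with Xist-high crypt libraries and 0 to 1 with 1 library left out. Of subfamily sums, 8 were called between regions, 5 without ileum crypt 1 and jejunum crypt 2, 13 with Xist-high crypt libraries and 0 to 12 with 1 library left out; between CD166 and LGR5 cells 0 were, and 2 by DESeq2, 1 by limma-voom, 1 with the block, 1 without the first pair, 2 with Xist-high crypt libraries and 0 to 1 with 1 library left out. Against crypt cells, 21 to 27 genes were called in CD166 cells and 24 to 32 in LGR5 cells with 1 library left out. The causes were not tested, and a fit without a sorted library has fewer libraries. Fits with only Xist-high crypt libraries hold 1 crypt library a region. Calls over all tested genes also varied between fits, as given above for some of them, and are not listed here for each setting. These counts therefore describe the fits and show nothing particular to P450 genes.

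Of 2323 recomputed values of single genes, 1998 kept direction and side of the threshold, 265 lost a call, 49 gained one and 11 changed sign, each a regional difference that was not called. With libraries left out, Cyp27a1 ran from -0.12 to 0.081 and Cyp2c68 from -0.36 to 0.088. The fits of Cyp3a44, from -1.60 to 0.77, and of Cyp4f18, from -1.39 to 1.46, also changed sign, but both genes have groups at 3 counts or fewer, so these values are no measure of a change. All 14 fits without 1 library kept the call of 1 of 15 named genes between regions, of 19 of 29 in CD166 cells and of 23 of 32 in LGR5 cells.

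Correlations of the deviations of same-numbered libraries ran from -0.52 to 0.42, with 10 of 31 pairs above 0.1. In groups of 2 libraries the deviations mirror each other, so each pair of sorted groups gives the same value for both numbers. These correlations therefore cannot show whether same-numbered libraries were paired. The replicate block gave 21 calls between regions, 26 in CD166 cells and 29 in LGR5 cells. Groups of 2 or 3 libraries, 2 near-alike crypt libraries of different regions and Xist levels against the labelled sex limit every regional value; 42.5% of P450 values were 0, so low genes could not be tested at this depth.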

Other observations

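Cyp2f2, known from club cells of the airway, fell outside the naming rule and was picked after its values were seen because it was present in some libraries of a group and near 0 in others. It read 4.25 and 0.0638 CPM in ileum CD166 libraries, against 7.92 and 7.59 CPM in jejunum CD166 libraries. In LGR5 cells it read 6.71 and 0 CPM in ileum, against 0 and 4.75 CPM in jejunum. In crypt cells it read 0, 0.151 and 0.229 CPM in ileum, against 7.44, 0.180 and 5.12 CPM in jejunum. No comparison called it. The libraries labelled ileum crypt 3 and jejunum crypt 1, alike in most genes, differed in it.

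Cyp3a44 and Cyp4f18, a leukotriene hydroxylase gene of myeloid cells, were unevenly spread over the crypt libraries. Ileum crypt 1 held 7.18 CPM of Cyp3a44 and jejunum crypt 2 held 3.96 CPM, against 0.184 to 0.545 CPM in the other 4 crypt libraries. Xist split these libraries the same way, at 1758 and 1158 CPM of the total count, against 2.50 to 3.03 CPM in the other 4. Sorted libraries were high in Xist too, at 204 to 1483 CPM, but held only 1 to 6 summed counts of Cyp3a44 a group. Cyp4f18 was at 2.17 CPM in ileum crypt 1, at 1.51 CPM in ileum crypt 2 and at 5.21 CPM in jejunum crypt 2, against 0.184 to 0.382 CPM in the other 3. Intraepithelial lymphocyte markers summed to 3028 CPM in ileum crypt 1, 10620 CPM in jejunum crypt 2 and 103 to 819 CPM in the other crypt libraries, with the lowest value in ileum crypt 2. Myeloid cell markers summed to 124.5 CPM in ileum crypt 1, 164.7 CPM in jejunum crypt 2, 78.5 CPM in ileum crypt 2 and 41.9 to 82.2 CPM in the other 3. The part of other cells, or of the sex of the mice, in these levels was not tested.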
